A study of Mus musculus with 9 samples.

Results

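The nuclear pore and nuclear transport genes of mouse T cell acute lymphoblastic leukaemia (T-ALL) cells were followed as the level of a human MYC transgene was lowered. The set held every protein-coding gene whose mouse symbol begins as a numbered nucleoporin (Nup), exportin (Xpo), importin (Ipo) or transportin (Tnpo), or as a karyopherin (Kpna or Kpnb). To these were added 12 genes by name: Ran, Rcc1, Rangap1, Ranbp1, Ranbp2, Cse1l, Tpr, Ndc1, Pom121, Seh1l, Rae1 and Nutf2. Symbols came from GENCODE release M21. The rule itself used no measured value, but the set was chosen with earlier results of these data known. The rule gave 56 genes, 44 of them by pattern, of 53380 genes in the deposited tables and 21865 protein-coding genes. All 56 had counts, and 55 passed the filter on low counts. The remaining member, Nup62cl, was left out of the tests.

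RNA was measured in 9 libraries, 3 at each of 3 MYC levels, all harvested after 48 hours. MYC on was mock treated, MYC intermediate received 20 pg/mL doxycycline, and MYC off received 500 pg/mL doxycycline. The sample titles give T-ALL for all groups and name no line. The paper derived such cells from tumours of EμSRα-tTA/tet-O-MYC mice on the FVB/N background. In these mice a lymphoid promoter drives the transactivator and doxycycline shuts the MYC transgene. All results therefore describe cultured tumour cells of this mouse model and nothing wider. The mock group received no doxycycline, so that MYC level and drug dose cannot be told apart.

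Totals ran from 18705516 to 39678799 counts per library, and between replicates Pearson's r of log CPM was 0.989 to 0.997 over 9946 genes, which are not independent replicates. The transgene, hMYC, had 1340.1, 1190.3 and 1249.9 CPM in the MYC on libraries, 428, 414 and 383 CPM at MYC intermediate and 4.08, 4.01 and 3.26 CPM at MYC off, where CPM are counts scaled to the library total. The T cell identity in the labels was met by all 13 T cell markers, which summed to 5829 ± 81.2 CPM at MYC on, 9436 ± 83.8 at MYC intermediate and 12015 ± 269 at MYC off (SD, n = 3 each). All 13 were higher in MYC off, so that T cell markers moved with the comparisons below, and their part in the results was not tested. Of 5 B cell markers 4 were at 0 counts, which allows up to 0.0118 CPM over the 9 libraries (3 counts, counting error only), and the B cell list summed to 0.148 to 0.267 CPM over the MYC on and MYC off libraries. The 6 myeloid markers summed to 40.6 to 43.6 CPM at MYC off and 26.6 to 30.9 CPM at MYC on, all but a trace of it from 2 genes that moved in opposite directions. Itgam was higher in MYC off (22.1 CPM, against 3.88 CPM in MYC on) and Csf1r lower (19.5 CPM, against 24.8 CPM in MYC on), while Lyz2, Adgre1 and S100a8 were at 0. Of 6 stromal and epithelial markers Pdgfrb alone had more than traces. Counts are relative to each library's total, so that a change in cell make-up and a change in RNA per cell cannot be told apart. Whether replicates came from separate cultures is not in the labels, so the p-values cover the spread among the libraries and nothing wider.

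The nuclear pore is a ring of nucleoporins set in the nuclear envelope. A scaffold of outer (Y complex) and inner rings anchors filaments, a basket and a channel rich in phenylalanine-glycine repeats, and cargo crosses it bound to import and export receptors of the importin beta family. The small GTPase RAN gives the traffic its direction, since its GTP form, made on chromatin, unloads import receptors and loads export receptors. MYC, a transcription factor that binds the E-box CACGTG together with MAX, is known for driving genes of cell growth, and growing cells send many ribosomal proteins into the nucleus and ribosomal subunits and tRNAs out of it.

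The promoters of 4 members whose level changed with MYC and whose window held CACGTG are given first, because this is the site that MYC with MAX binds. Each window runs from 250 bases before to 50 bases after the RefSeq start, 5′ to 3′ on the strand of the gene, in lower case with CACGTG in capitals (RefSeq, GRCm38.p6). They lie at chr14:55635635-55635934 on the minus strand for Ipo4, chr10:121626283-121626582 on the minus strand for Xpot, chr7:110018065-110018364 on the plus strand for Ipo7 and chr5:129019906-129020205 on the plus strand for Ran.
Ipo4: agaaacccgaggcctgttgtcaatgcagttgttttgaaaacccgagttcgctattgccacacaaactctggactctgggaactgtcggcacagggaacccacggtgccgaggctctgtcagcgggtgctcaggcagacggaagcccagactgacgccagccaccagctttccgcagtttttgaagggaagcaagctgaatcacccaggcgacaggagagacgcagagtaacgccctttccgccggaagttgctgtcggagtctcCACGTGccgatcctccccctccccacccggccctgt
Xpot: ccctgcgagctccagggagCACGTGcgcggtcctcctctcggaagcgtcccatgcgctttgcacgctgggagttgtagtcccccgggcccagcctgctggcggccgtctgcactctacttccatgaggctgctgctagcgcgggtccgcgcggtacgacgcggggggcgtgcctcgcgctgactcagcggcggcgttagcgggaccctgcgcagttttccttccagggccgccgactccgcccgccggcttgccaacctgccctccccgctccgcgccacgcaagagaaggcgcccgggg
Ipo7: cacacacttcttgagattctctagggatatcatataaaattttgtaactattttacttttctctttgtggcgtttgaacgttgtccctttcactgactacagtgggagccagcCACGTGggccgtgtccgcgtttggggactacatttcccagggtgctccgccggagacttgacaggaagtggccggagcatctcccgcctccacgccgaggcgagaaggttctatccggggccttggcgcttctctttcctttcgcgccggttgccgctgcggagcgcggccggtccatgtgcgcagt
Ran: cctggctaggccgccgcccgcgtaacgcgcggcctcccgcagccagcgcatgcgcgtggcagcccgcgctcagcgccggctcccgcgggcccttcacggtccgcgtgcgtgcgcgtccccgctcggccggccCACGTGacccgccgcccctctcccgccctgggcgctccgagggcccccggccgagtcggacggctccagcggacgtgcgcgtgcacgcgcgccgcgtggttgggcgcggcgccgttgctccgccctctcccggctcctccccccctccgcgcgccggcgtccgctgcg
The first base of the motif lay 231 bases before the start in Xpot, 137 before it in Ipo7 and 118 before it in Ran, and was base 15 of the transcribed side in Ipo4. RefSeq windows matched 45 of the 56 members by symbol. CACGTG, which reads the same on both strands, was in 9 of their 53 windows (17.0%), against 7.15% of all 32851 windows and 10.1% of the 11057 windows of tested protein-coding genes. By gene CACGTG was found for 8.09% of all 27025 genes with windows and for 11.99% of the 8691 tested protein-coding genes among them. Among the members it was found for 7 of 29 lower in MYC off (24.1%) and for 2 of 16 others (12.5%). The 7 were the 4 printed and Nup188, Nup54 and Nup93. The others were Ranbp2, which was not called, and Tnpo2, which was higher in MYC off. The windows of Tnpo1, Ipo5, Ranbp1, Nutf2 and Ipo11, all lower in MYC off, held no CACGTG. A match describes these letters in the window and not a bound site.

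Between MYC off and MYC on most of the transport machinery was at a lower level in MYC off. Of 55 members tested, 38 were lower, 5 were higher and 12 were not called (edgeR quasi-likelihood test, Benjamini-Hochberg adjusted p under 0.01 over 14098 genes). Among all genes tested 27.4% were lower and 27.5% higher by the same rule. The median log2 fold change of the members was -0.49 (MYC off over MYC on), and that of all genes 0.03. The 3 MYC off libraries lay wholly below the 3 MYC on libraries in 40 members, against 32.8% of all genes, and wholly above them in 6, against 37.2% of all genes. A decrease of more than 2-fold was called in 9 members, against 10.8% of all genes. Together the members took 9688 ± 146 CPM at MYC off and 12917 ± 165 CPM at MYC on, that is 75.0% of the MYC on level. MYC intermediate, with 11178 ± 67.8 CPM, held 86.5% of it (SD, n = 3 each).

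**Figure D1:**
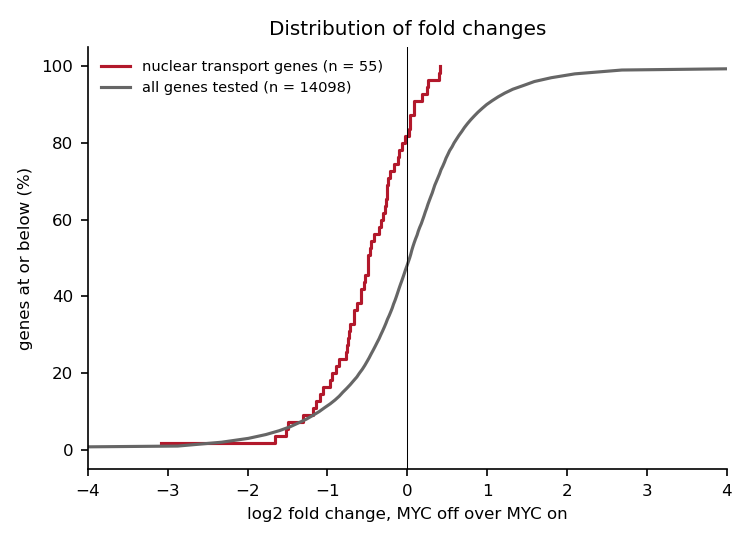
Cumulative share of genes (%) against the log2 fold change of MYC off over MYC on, for the 55 members tested (red) and all 14098 genes tested (grey). The members' curve lies to the left around its median of -0.49 and meets that of all genes near the low end, where large decreases lie.

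The RAN cycle, which supplies the energy and direction of transport, had 4 of 5 members lower in MYC off, against 27.4% of all genes. The median log2 fold change of the 5 was -0.89. Ran itself was the most abundant member per length, at 1199.6 ± 38.3 TPM in MYC on (the authors' length-scaled values, SD, n = 3). Its counts were 961, 957 and 910.3 CPM in the MYC on libraries, 760.3, 726 and 750.1 CPM at MYC intermediate and 544, 522 and 493 CPM at MYC off. The 3 groups did not overlap at any step, and MYC off retained 55.1% of the MYC on level (log2 fold change -0.89 with an SE of 0.06, adjusted p = 1.76e-09). A near-identical copy of Ran, Gm13461, had counts equal to 1.63% of those of Ran, and reads of the 2 genes may be split between them.

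Ranbp1, which helps RAN hydrolyse GTP in the cytoplasm, had 378, 354 and 325 CPM in the MYC on libraries, 294, 267 and 252 CPM at MYC intermediate and 171, 157 and 148 CPM at MYC off. Each MYC off library lay below each MYC intermediate library, and these in turn below each MYC on library (log2 fold change -1.18 with an SE of 0.08, adjusted p = 3.26e-09). Of the exonic bases of Ranbp1, 20.1% are shared with other genes in GENCODE M21. With Gm49776 on the same strand, which is absent from the deposited tables, Ranbp1 shares 16.9%. With Trmt2a on the other strand, which the kit does not tell apart, it shares 3.24%. Nutf2, the carrier that returns RAN to the nucleus, had 60.4, 57.9 and 53.7 CPM in the MYC on libraries, 52.3, 41.6 and 36.9 CPM at MYC intermediate and 29.1, 28.2 and 24.9 CPM at MYC off. MYC off and MYC on did not overlap (log2 fold change -1.10 with an SE of 0.12, adjusted p = 6.03e-07), and the 4 near-identical copies of Nutf2 together had 6.08% of its counts.

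Rcc1, the chromatin-bound exchange factor that makes RAN-GTP, had 284, 275 and 291 CPM in the MYC on libraries, 210.2, 234 and 219 CPM at MYC intermediate and 176, 172 and 175 CPM at MYC off. Again no library of 1 group reached the range of another (log2 fold change -0.73 with an SE of 0.06, adjusted p = 1.23e-08). Rangap1, the GTPase-activating protein held at the pore's outer face, had 508, 485 and 518 CPM in the MYC on libraries, 437, 477 and 488 CPM at MYC intermediate and 466, 451 and 463 CPM at MYC off. The MYC off libraries lay below those of MYC on, but the difference was small and not called (log2 fold change -0.16 with an SE of 0.06, adjusted p = 0.0176). It was called when only the libraries of the groups compared entered the fit (log2 fold change -0.19, adjusted p = 0.00504).

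**Figure D2:**
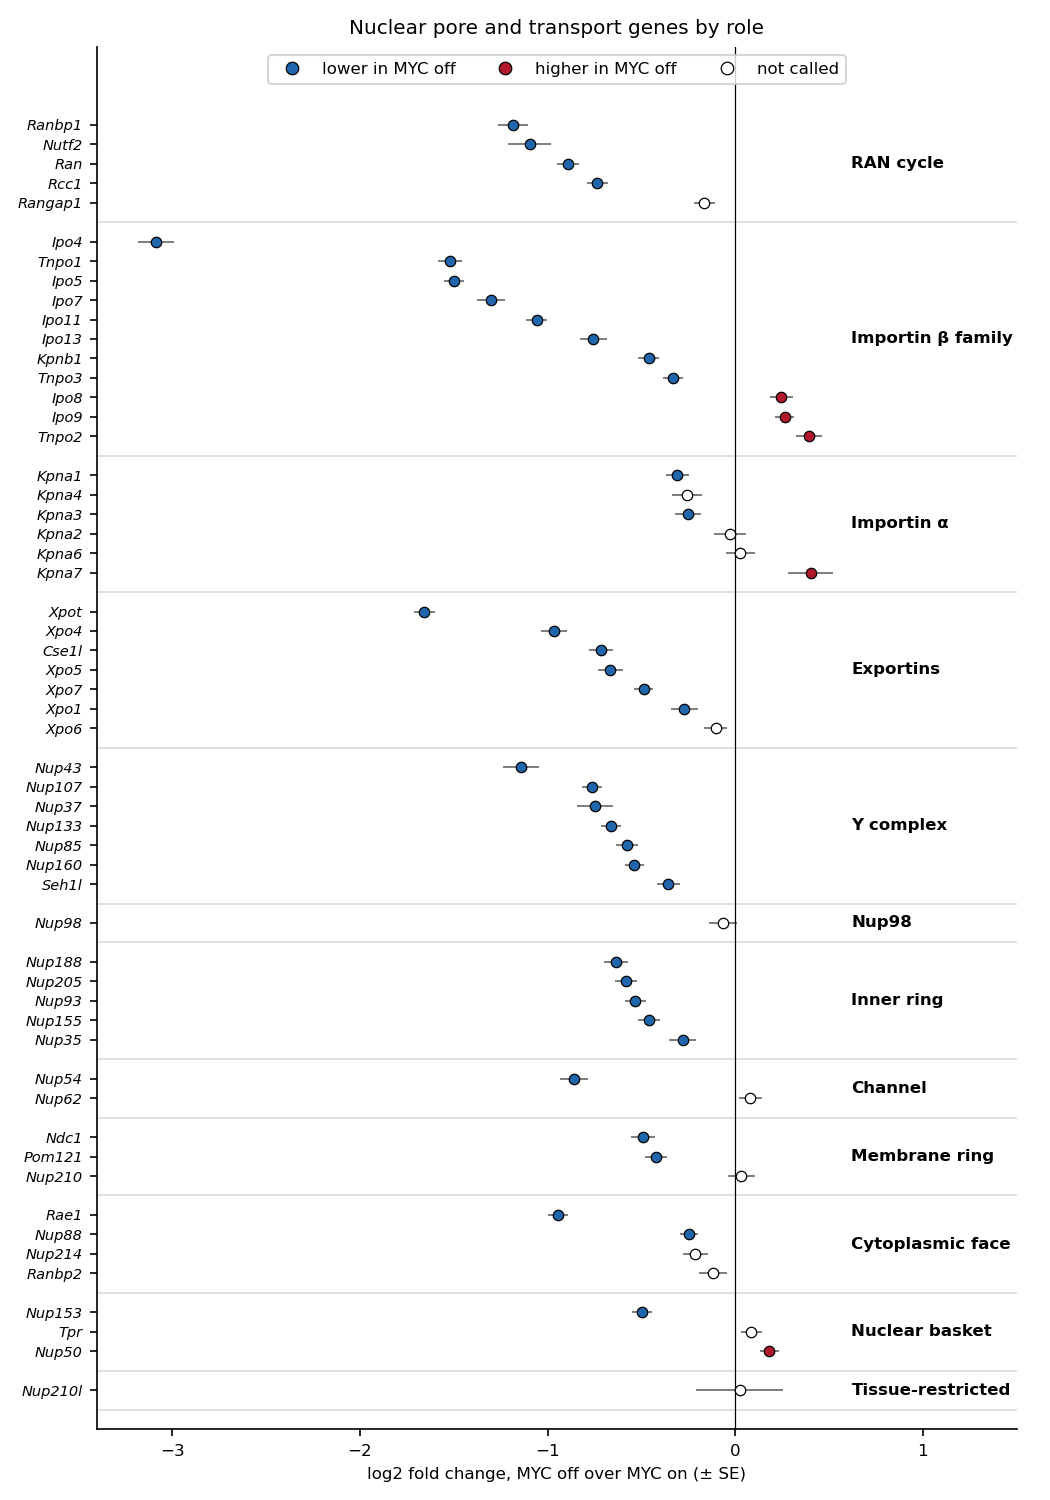
Log2 fold change of MYC off over MYC on with its standard error for the 55 members tested, grouped by role. Blue points were called lower (38), red points higher (5) and open points were not called (12), and the 7 members under Y complex and the 5 under inner ring are blue, with Nup98 plotted apart as an open point.

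The import receptors of the importin beta family held both the strongest decrease and 3 of the 5 increases. Of 11 receptors 8 were lower and 3 higher in MYC off (27.4% and 27.5% of all genes), and the median was -0.76. The share higher, 27.3%, was near that of all genes and is no result about the family. Ipo4, a receptor for histones and ribosomal proteins, had 60.1, 56.5 and 61.6 CPM in the MYC on libraries, 28.5, 32.9 and 33.9 CPM at MYC intermediate and 6.78, 8.02 and 6.71 CPM at MYC off. The MYC off libraries were all at 8.02 CPM or less and far from the others, and MYC off retained 12.1% of the MYC on level (log2 fold change -3.09 with an SE of 0.10, adjusted p = 4.54e-13). Only 0.773% of all genes tested had a lower fold change. GENCODE M21 places 55.3% of the exonic bases of Ipo4 also within Gm49378, a gene model on the same strand that had 1 count in the 9 libraries. Apart from that 1 count, reads in the shared bases were not given to Gm49378. They may have been dropped, so the printed level of Ipo4 is uncertain.

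Tnpo1, transportin 1, which imports RNA-binding proteins such as hnRNP A1, had 292, 310.4 and 304 CPM in the MYC on libraries, 196, 175 and 178 CPM at MYC intermediate and 105, 103 and 115 CPM at MYC off. The 3 groups were separate, and MYC off retained 35.7% (log2 fold change -1.52 with an SE of 0.06, adjusted p = 1.11e-11). Ipo5, an importer of ribosomal proteins, had the highest mean TPM of the import receptors in MYC on (276 TPM) and 477, 507 and 490.4 CPM in the MYC on libraries, 319, 316 and 335 CPM at MYC intermediate and 176, 187 and 169.9 CPM at MYC off (log2 fold change -1.50 with an SE of 0.05, adjusted p = 2.09e-12). Here too the groups stood apart at both steps.

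Ipo7, which carries ribosomal proteins and, with importin beta 1, linker histone H1, had 122, 128 and 122 CPM in the MYC on libraries, 79.7, 67.0 and 70.7 CPM at MYC intermediate and 52.3, 54.1 and 48.2 CPM at MYC off (log2 fold change -1.30 with an SE of 0.07, adjusted p = 4.71e-10). Ipo11, known as the carrier of a ubiquitin-conjugating enzyme, had 138, 143 and 134 CPM in the MYC on libraries, 90.8, 87.8 and 87.0 CPM at MYC intermediate and 64.0, 69.7 and 70.5 CPM at MYC off (log2 fold change -1.06 with an SE of 0.06, adjusted p = 1.94e-10). In both genes the MYC intermediate libraries lay nearer to MYC off than to MYC on. The remaining decreases were those of Ipo13, a receptor that works in both directions (log2 fold change -0.76), Kpnb1, which is importin beta 1 itself (-0.46), and Tnpo3, the importer of serine-arginine splicing factors (-0.33).

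The 3 receptors that were higher in MYC off changed little. Tnpo2, a close relative of Tnpo1, had 70.9, 75.0 and 79.9 CPM in the MYC on libraries, 73.7, 86.3 and 82.4 CPM at MYC intermediate and 98.0, 102 and 104 CPM at MYC off (log2 fold change 0.39 with an SE of 0.07, adjusted p = 9.24e-05). Its direction was opposite to that of Tnpo1, the MYC off libraries lay above all others, and MYC on and MYC intermediate overlapped. Of its exonic bases 11.7% are shared with other genes, mostly A230103J11Rik on the other strand.

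Ipo9, an importer of core histones and actin, had 322, 337 and 339 CPM in the MYC on libraries, 366, 391 and 395 CPM at MYC intermediate and 388, 409 and 430.1 CPM at MYC off (log2 fold change 0.26 with an SE of 0.05, adjusted p = 0.000309). MYC on lay below both other groups, which overlapped each other. Ipo8, which carries argonaute proteins and is the relative of Ipo7, had 85.4, 91.7 and 87.7 CPM in the MYC on libraries, 106, 94.0 and 96.7 CPM at MYC intermediate and 106, 110.0 and 106 CPM at MYC off (log2 fold change 0.25 with an SE of 0.06, adjusted p = 0.00255). The MYC off libraries lay above those of MYC on, but the call was lost without MYC on replicate 1 (adjusted p = 0.0148) and without MYC off replicate 2 (adjusted p = 0.0129).

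**Figure D3:**
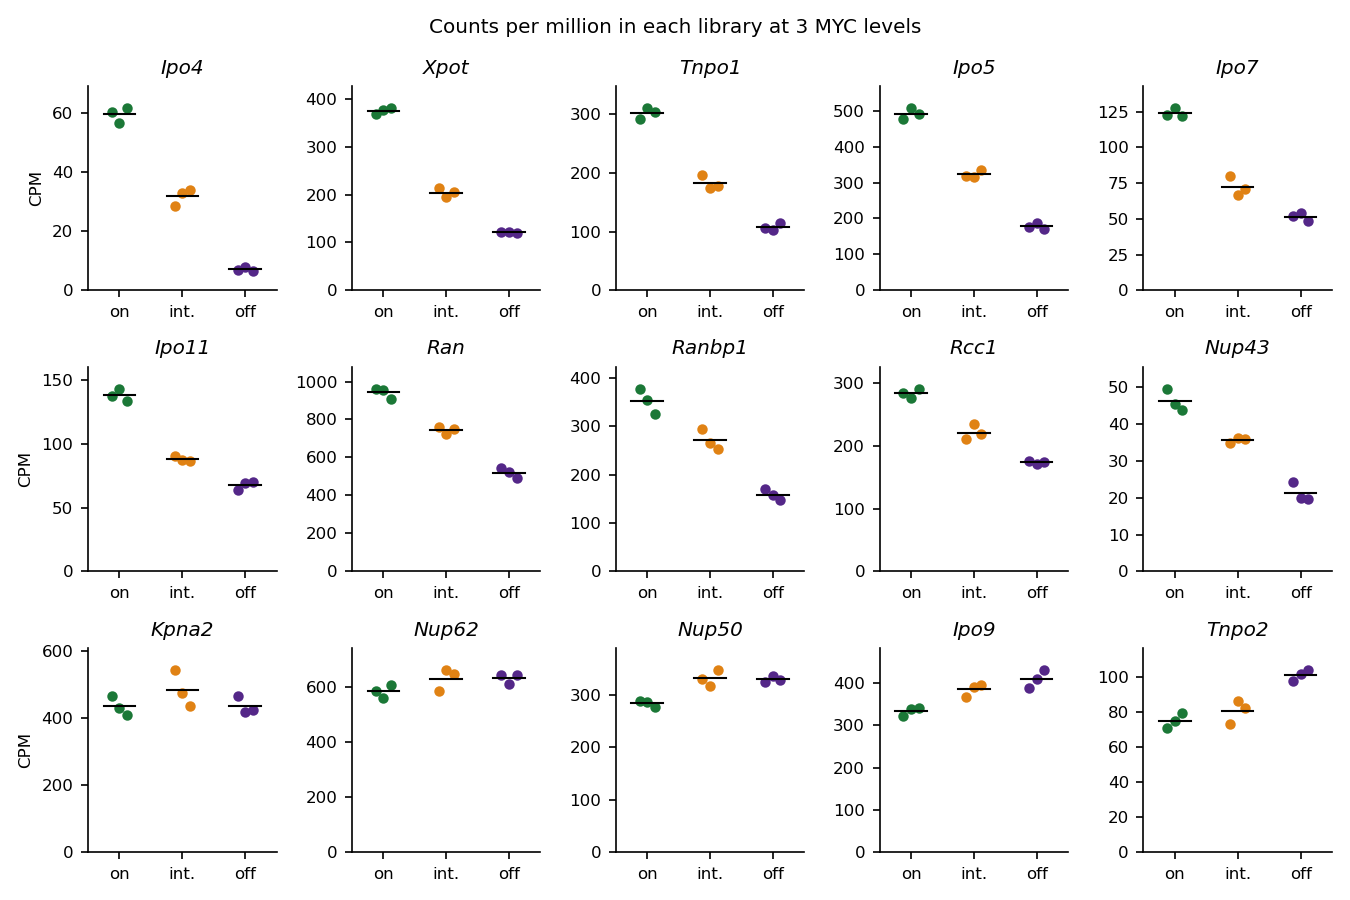
CPM of 15 members in each library, with MYC on, MYC intermediate (int.) and MYC off from left to right, 1 point per library and a line at each group mean (n = 3). The 10 genes in the upper rows step down with MYC, Kpna2 and Nup62 were not called, and Nup50, Ipo9 and Tnpo2 are higher in MYC off.

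The importin alpha adapters, which hold the classical nuclear localisation signal of the cargo for importin beta 1, had smaller fold changes. Of 6 tested, Kpna1 (log2 fold change -0.31) and Kpna3 (-0.25) were lower and Kpna7 higher in MYC off, and the median of the 6 was -0.14. Among all genes 27.4% were lower and 27.5% higher, so these counts are no result about the adapters. Kpna2, the most abundant adapter per length (509 ± 32.2 TPM in MYC on, SD, n = 3), had 466, 428 and 409.8 CPM in the MYC on libraries, 543, 474 and 436 CPM at MYC intermediate and 467, 417 and 425 CPM at MYC off. Its groups overlapped and its log2 fold change was -0.03 ± 0.08 SE (adjusted p = 0.791, edgeR), and 5 near-identical copies had together 2.19% of its counts. The log2 fold change of Kpna6 was 0.03. Kpna4 was not called (log2 fold change -0.26 with an SE of 0.08, adjusted p = 0.0115), though its MYC off libraries lay below those of MYC on. It was called under 8 of 17 alternatives, among them the fit with the replicate number as a block (adjusted p = 0.0034). Kpna3 lost its call without MYC on replicate 1 or 2 and without MYC off replicate 2 or 3 (adjusted p 0.012 to 0.0224).

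Kpna7, an adapter known from oocytes and early embryos, was low throughout, with 5.71, 4.92 and 5.96 CPM in the MYC on libraries, 6.73, 6.33 and 6.62 CPM at MYC intermediate and 7.31, 7.46 and 7.82 CPM at MYC off. The MYC off libraries lay above those of MYC on (log2 fold change 0.40 with an SE of 0.12, adjusted p = 0.00827), but the call was lost under 12 of 17 alternatives, among them the removal of any 1 MYC off or MYC on library (adjusted p up to 0.0466). The summed level of the 6 adapters was 781 ± 32.4 CPM at MYC off and 830.0 ± 33.7 CPM at MYC on (SD, n = 3 each), and their libraries overlapped.

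Among the exportins 6 of 7 were lower in MYC off and none was higher (27.4% and 27.5% of all genes), with a median log2 fold change of -0.67. Xpot, the exporter of mature tRNA, had 368, 376 and 381 CPM in the MYC on libraries, 214, 194 and 205 CPM at MYC intermediate and 122, 122 and 121 CPM at MYC off. The 3 groups were tightly grouped and far apart (log2 fold change -1.66 with an SE of 0.06, adjusted p = 9.43e-13), and MYC off retained 32.5% of the MYC on level. Xpo4, which exports the translation factor EIF5A, had 125, 134 and 119.7 CPM in the MYC on libraries, 94.1, 84.3 and 87.1 CPM at MYC intermediate and 60.0, 69.9 and 69.2 CPM at MYC off (log2 fold change -0.97 with an SE of 0.07, adjusted p = 6.29e-09), with no overlap between groups.

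Cse1l, which returns importin alpha to the cytoplasm, had 199 ± 3.28 CPM at MYC off and 319 ± 19.5 CPM at MYC on (SD, n = 3 each), a log2 fold change of -0.71. Xpo5, the exporter of microRNA precursors, and Xpo7, a receptor of broad cargo, had log2 fold changes of -0.67 and -0.49. Xpo1, the general exporter of proteins with leucine-rich signals, had 454, 475 and 421 CPM in the MYC on libraries, 492, 407 and 422 CPM at MYC intermediate and 382, 373 and 390.3 CPM at MYC off. Its decrease in MYC off was slight (log2 fold change -0.27 with an SE of 0.07, adjusted p = 0.00356) and was not called without MYC on replicate 1 or 2 or without MYC off replicate 2 or 3 (adjusted p 0.0107 to 0.0201). Xpo6, the exporter of actin, was not called (log2 fold change -0.10), and its groups overlapped.

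Most genes of the pore scaffold were lower in MYC off. The 7 members grouped here as the Y complex were each called lower, with log2 fold changes of -0.36 to -1.14 and a median of -0.66, while Nup98, which also yields a Y complex subunit, was not called (-0.07), nor was Sec13, a subunit outside the rule (-0.13). The 5 inner ring members were each lower, at -0.28 to -0.63 with a median of -0.53. Among all genes 27.4% were lower by the same rule. Nup43 stood lowest in the Y complex, with 49.6, 45.4 and 43.9 CPM in the MYC on libraries, 35.0, 36.4 and 36.0 CPM at MYC intermediate and 24.3, 20.0 and 19.8 CPM at MYC off. No groups overlapped (log2 fold change -1.14 with an SE of 0.10, adjusted p = 3.82e-08). The others were Nup107 (-0.76), Nup37 (-0.75), Nup133 (-0.66), Nup85 (-0.58), Nup160 (-0.54) and Seh1l (-0.36). Per length, Nup107 had the highest mean of the 7, at 329 ± 16.0 TPM in MYC on (SD, n = 3). Of Nup133, 10.4% of exonic bases are shared with genes on the other strand.

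In the inner ring, which holds the channel in place, the log2 fold changes were -0.63 for Nup188, -0.58 for Nup205, -0.53 for Nup93, -0.46 for Nup155 and -0.28 for Nup35. Nup188 shares 12.4% of its exonic bases with other genes, mostly on the other strand. Nup35 had a near-identical copy, Gm4353, with counts equal to 20.2% of its own, and its call was lost under 4 of 17 alternatives, including those without MYC on replicate 1 or 3 and without MYC off replicate 2 (adjusted p 0.0112 to 0.0159). The 7 Y complex members without Nup98 summed to 964 ± 13.2 CPM at MYC off and 1433 ± 41.3 CPM at MYC on, that is 67.3% of the MYC on level. For the inner ring the sums were 740.1 ± 30.4 CPM at MYC off and 1061 ± 39.6 CPM at MYC on, that is 69.8% (SD, n = 3 each). In each case the MYC off libraries lay below those of MYC on.

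The parts of the pore that line the channel or reach out from the scaffold were mixed. In the channel, Nup54 was lower (log2 fold change -0.86), while Nup62, the third most abundant member per length (690.2 ± 25.3 TPM in MYC on, SD, n = 3), had 586, 561 and 609 CPM in the MYC on libraries, 585, 663 and 647 CPM at MYC intermediate and 645, 611 and 646 CPM at MYC off. Its MYC off libraries lay just above those of MYC on, and the difference was not called (log2 fold change 0.08 with an SE of 0.06, adjusted p = 0.247). Of the membrane ring, Ndc1 (-0.49) and Pom121 (-0.42) were lower, and the glycoprotein gene Nup210 was not called (0.03). Pom121 shares 11.9% of its exonic bases with Nsun5 on the other strand.

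On the cytoplasmic face, which receives exported RNA, Rae1, an mRNA export factor, had the lowest fold change, with 259, 255 and 248 CPM in the MYC on libraries, 173, 183 and 189.5 CPM at MYC intermediate and 134, 135 and 136 CPM at MYC off (log2 fold change -0.95 with an SE of 0.05, adjusted p = 2.54e-10). Nup88 was lower by little (-0.25), and the groups of Ranbp2, the RAN-binding SUMO ligase of the filaments, overlapped (-0.12, not called). Nup214, the partner of Nup88, was not called (log2 fold change -0.21 with an SE of 0.07, adjusted p = 0.0102) and its groups overlapped. It was called under 8 of 17 alternatives, among them the replicate block (adjusted p = 0.00641). Nup98, whose precursor yields both a mobile nucleoporin and the Y complex subunit, had overlapping groups.

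In the nuclear basket Nup153 was lower (log2 fold change -0.50), the basket filament gene Tpr was not called (0.09), and Nup50, a cofactor of importin alpha recycling, was higher, with 287, 286 and 276 CPM in the MYC on libraries, 330.1, 315 and 347 CPM at MYC intermediate and 324, 335 and 327 CPM at MYC off (log2 fold change 0.18 with an SE of 0.05, adjusted p = 0.00593). The MYC off and MYC intermediate libraries of Nup50 lay above those of MYC on, yet the call between MYC off and MYC on was lost under 8 of 17 alternatives, among them the removal of any 1 MYC on or MYC off library (adjusted p 0.0118 to 0.025). The tissue-restricted Nup210l had 1.91 to 3.64 CPM over the MYC off and MYC on libraries, and its log2 fold change of 0.02 ± 0.23 SE left the direction undetermined. Nup62cl, not tested, had at most 0.446 CPM in any library.

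**Figure D4:**
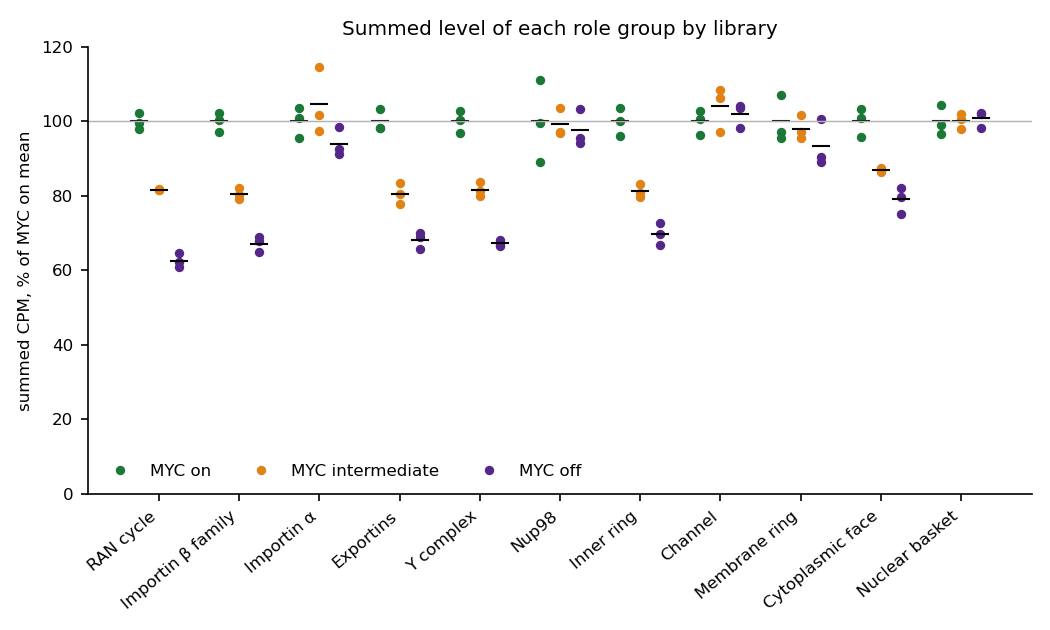
Summed CPM of each role group in each library as a percentage of the MYC on mean, with MYC on, MYC intermediate and MYC off from left to right, 1 point per library and a line at each mean (n = 3). The RAN cycle, importin β family, exportins, Y complex and inner ring step down to 62.6% to 69.8% in MYC off, while the channel and basket stay near 100%.

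The sums by role set these groups side by side. In MYC off the RAN cycle retained 62.6% of the MYC on level, the importin beta family 67.2%, the exportins 68.2%, the cytoplasmic face 79.1%, the membrane ring 93.4%, the importin alpha adapters 94.1%, the nuclear basket 101% and the channel 102%. A sum over genes is set mostly by its most abundant members, such as Nup62 in the channel and Nup210 in the membrane ring. In MYC intermediate the first 3 retained 81.7%, 80.6% and 80.6%.

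MYC intermediate allowed the 2 steps to be compared, since it had 32.4% of the MYC on level of hMYC. Between MYC intermediate and MYC on, 26 members were lower and 2 were higher (edgeR, 17.2% and 17.4% of all genes), with a median log2 fold change of -0.25. The 2 higher were Nup50 and Ipo9, and the call of Ipo9 was lost without MYC intermediate replicate 2 or 3 and without MYC on replicate 1 or 2 (adjusted p 0.0109 to 0.0162). Between MYC off and MYC intermediate, 30 were lower and 1, Tnpo2, was higher (14.7% and 9.95% of all genes), also with a median of -0.25. Tnpo2 was not called there without MYC off replicate 1, 2 or 3 or without MYC intermediate replicate 1 (adjusted p 0.0101 to 0.0177). The 2 comparisons share the MYC intermediate libraries. The libraries of MYC intermediate lay wholly below those of MYC on in 34 members (27.6% of all genes), and those of MYC off wholly below those of MYC intermediate in 38 (21% of all genes).

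In 23 of 55 members both steps were called lower, against 10.8% of all genes. Xpo5, Nup205 and Nup155 were called lower at the first step alone. Nutf2, Nup37, Ndc1, Kpnb1, Pom121, Seh1l and Kpna1 were called lower at the second step alone, and 19 members were called at neither. A call at 1 step and not at the other does not show that the steps differ in size. The 7 members of the Y complex without Nup98 were called lower at the second step (14.7% of all genes). At the first step 5 of them were called lower (17.2% of all genes), while Nup98 was called at neither.

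The position of MYC intermediate between the others was the log2 fold change of MYC intermediate over MYC on divided by that of MYC off over MYC on, so that a gene still at its MYC on level has 0 and a gene already at its MYC off level has 1. It was taken for the 25 members called between MYC off and MYC on with an absolute log2 fold change of at least 0.5, all of them lower in MYC off. Their median was 0.47 (quartiles 0.37 and 0.57), and the 2843 genes of all those tested that were lower by the same rule had a median of 0.49. For hMYC itself the position was 0.19. Its log2 fold change of -8.41 ends at 3.78 CPM in MYC off, 0.300% of the MYC on level. Its position is therefore not comparable with those of the members. Members ranged from 0.29 in Ipo4 to 0.66 in Xpo5. Nup43, Ranbp1 and Nutf2 were also near the low end (0.32, 0.31 and 0.35), and Nup205 and Ipo13 near the high end (0.65 and 0.63).

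Ipo4 alone was called as departing from the log2 midpoint of the MYC on and MYC off levels. That is 1.82% of the members tested, against 1.89% of all genes, so the count is no result about the members. A member not called may still lie away from the midpoint. The level of Ipo4 in MYC intermediate, 31.8 ± 2.88 CPM (SD, n = 3), was higher than the midpoint by a log2 difference of 0.65 ± 0.08 SE (edgeR adjusted p = 0.000123). MYC intermediate thus retained 53.5% of the MYC on level of Ipo4, and the log2 fold changes were -0.89 for MYC intermediate over MYC on and -2.20 for MYC off over MYC intermediate. In CPM the 2 steps were of similar size, with means of 59.4 at MYC on, 31.8 at MYC intermediate and 7.17 at MYC off. With the replicate block Ranbp1 was called too (difference 0.22, adjusted p = 0.00455).

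Genes that work with the receptors but have other names were also counted. Of 7 tested RAN and import accessory genes, 4 were lower in MYC off and none was higher (27.4% and 27.5% of all genes), with a median log2 fold change of -0.89. Rangrf, a factor that binds RAN (MOG1 in yeast), had 3.29 ± 0.146 CPM at MYC off and 28.5 ± 1.40 CPM at MYC on (SD, n = 3 each, log2 fold change -3.14, adjusted p = 2.34e-12, edgeR). Heatr3, which serves the import of the ribosomal protein RPL5, had 36.5 ± 2.37 CPM at MYC off and 161 ± 6.81 CPM at MYC on (-2.17). Rcc2, a relative of Rcc1, and Hikeshi, the importer of heat shock protein 70, were at -1.13 and -0.89. Ranbp3, Snupn and Ranbp6 were not called.

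Among 11 adaptors for the export of RNA and ribosomal subunits, 8 were lower and 1 higher in MYC off (27.4% and 27.5% of all genes), with a median of -0.73. Rrp12, an export factor of both ribosomal subunits known from yeast, had 21.9 ± 1.80 CPM at MYC off and 175 ± 12.8 CPM at MYC on (log2 fold change -3.03, SD, n = 3 each). The large-subunit factor genes Mdn1 (-2.50) and Sdad1 (-1.99) and the small-subunit factor gene Ltv1 (-1.23) were lower too, while Ncbp3, a cap-binding protein gene, was higher (0.46). Of 23 tested mRNA export genes 5 were lower and 3 higher, against 27.4% and 27.5% of all genes, with a median of -0.06 against 0.03 for all genes, so these counts are no result about the list. Thoc1 of the THO complex had the lowest value (-0.69). The next were Sarnp (-0.39) and Thoc3 (-0.34), both lower, and Nxt1, the partner of the mRNA exporter NXF1, which was higher (0.37).

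Of 9 further pore and SUMO genes 3 were lower and 1 higher, against 27.4% and 27.5% of all genes. The median was -0.13 against 0.03 for all genes, and these counts are no result about the list. Ahctf1, which seeds pore assembly on chromatin, was at 113 ± 6.99 CPM at MYC off and 212 ± 20.2 CPM at MYC on (log2 fold change -0.94, SD, n = 3 each). The pore-associated membrane protein gene Tmem33 (-0.72) and Aaas, which encodes the nucleoporin ALADIN (-0.39), were lower, and the SUMO protease gene Senp1 was higher (0.49). Sec13, the Y complex subunit that also coats secretory vesicles, was not called (adjusted p = 0.0568). The nucleoporin genes known as Nup42 and Nup58 carry older symbols in the annotation, Nupl2 and Nupl1, and fell outside the rule. Nupl2 was lower in MYC off (-0.76). Nupl1 had 0 of 254517689 counts. Of its exonic bases 55.4% lie in other genes, chiefly Gm49336 on the same strand, which had 12302 counts, and reads of Nupl1 may have been given to that gene model or dropped, so the 0 does not bound its level.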

How the data were processed

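The authors trimmed reads with cutadapt 1.16, aligned them with STAR 2.5.4b to mm10 and counted them with featureCounts, per the submitters' processing notes. The annotation release and the strand setting are not given in the sources used here. Libraries were made from oligo(dT)-primed SMART-Seq v4 cDNA without strand information. The deposited tables, 1 per library, held raw counts per gene, reads per kilobase (a deposited score with no depth scaling), deposited FPKM, deposited TPM and a deposited fraction that ranks genes within the library. Tests used the counts, levels between genes used TPM. The remaining columns were used only to check units. Every row named a gene.

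GENCODE M21 supplied symbols and biotypes. Counts were tested in R 4.3.3 with edgeR 4.0.16 (TMM scaling, default filter, quasi-likelihood F test, two-sided, Benjamini-Hochberg adjustment over 14098 genes, called at an adjusted p under 0.01). A single fit over the 9 libraries had group as its only term. Contrasts were MYC off over MYC on, MYC intermediate over MYC on, MYC off over MYC intermediate, and MYC intermediate minus the mean of the others. CPM were scaled to the library total, without TMM factors. The procedure was tested on simulated counts of MYC off and MYC on, with 200 genes drawn at random and changed. It called 16.3% of 1.25-fold, 62% of 1.5-fold, 71.4% of 2-fold and 96% of 4-fold changes. Of unchanged genes it called 0.0219%. In the data 7734 genes were called between MYC off and MYC on. With so few genes changed the adjustment was stricter in the simulation, so these rates do not hold for the fit reported. PCR reads without molecular tags are not independent molecules.

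Every member is named with a fold change or its counts. Values per library are given for the 10 lowest and 5 highest called members with at least 5 CPM in 1 group, the RAN cycle and hMYC, and up to 4 called genes with the largest fold change are named per other list. Ncbp3, Nupl2, Sec13, Banf1, Sun1, Lmnb1 and Lmnb2 were added after their values were seen. Rae1, Xpo1, Kpna2 and Nup62 were given per library after their values were seen. The members and lists were chosen with earlier results of these data known. Near-identical copies are genes with at least 95% identity over at least 300 bases.

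Same-numbered libraries of MYC off and MYC on deviated together from their group means (r = 0.38, 0.25 and 0.22 over 9946 genes). Differently numbered libraries were not compared and the meaning of a number is not labelled, so a pairing is not established. A fit with the replicate block was run as an alternative beside DESeq2 1.42.0, other scalings and filters, thinning to 18705516 counts and leaving out each library, 17 alternatives in all.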

Additional observations from a re-analysis of the deposited data

How the results depend on the processing

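Over 17 alternatives the count of members lower in MYC off than in MYC on was 35 to 41 (38 in the fit reported), lower in MYC intermediate than in MYC on 22 to 29 (26) and lower in MYC off than in MYC intermediate 24 to 35 (30). Of 952 values for the 55 members tested and hMYC, 901 kept their direction and their side of the threshold, 34 lost the call, 17 gained it and none reversed. For 47 of these 56 genes nothing changed, and the 9 exceptions were Kpna7, Ipo8, Nup50, Rangap1, Nup35, Xpo1, Kpna4, Kpna3 and Nup214. Of 27 genes named from other lists, Lmnb2 lost its call without MYC off replicate 2 or 3 and without MYC on replicate 1 or 2, and the others stayed on their side of the threshold under each alternative run. The 5 members higher in MYC off than in MYC on became 3 with DESeq2 size factors in edgeR and 3 with no filter on low counts, and 2 to 5 when single libraries were left out. Between MYC off and MYC on, Tnpo2 and Ipo9 kept the call in all 17. Leaving out single libraries gave 1 to 2 members higher in MYC intermediate than in MYC on, and 0 to 1 higher in MYC off than in MYC intermediate. The calls so lost were those of Ipo9 and Tnpo2. Members departing from the midpoint were 2 with no filter on low counts and 2 with the replicate block, against 1 in the fit reported, and in both Ranbp1 joined Ipo4. Under the replicate block 45, 30 and 36 members were called in the 3 comparisons, against 43, 28 and 31 without it, and the block lost none of those calls. Same-numbered libraries of MYC intermediate and MYC on had r = 0.13, -0.18 and -0.16, so that those of replicates 2 and 3 deviated weakly in opposite directions. Those of MYC off and MYC intermediate had r = 0.37, 0.03 and 0.08, with little shared deviation in replicates 2 and 3. The cause of these changes was not tested. Depth and 3 libraries per group limit what can be called, above all among small fold changes, and a member not called may still differ.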

Other observations

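Among the nuclear lamina and envelope genes, which border the pores, more were higher than lower in MYC off. Of 23 tested, 12 were higher and 3 lower in MYC off than in MYC on, with a median log2 fold change of 0.34 (edgeR quasi-likelihood test, Benjamini-Hochberg adjusted p under 0.01, and 27.5% of all genes were higher and 27.4% lower by the same rule). Their summed level was 5617 ± 37.4 CPM at MYC off and 4091 ± 8.43 CPM at MYC on, with 5202 ± 97.0 CPM at MYC intermediate (SD, n = 3 each). Sun2, an inner membrane protein that links the lamina to the cytoskeleton, had 27.5, 17.9 and 26.2 CPM in the MYC on libraries, 54.3, 46.0 and 33.3 CPM at MYC intermediate and 71.7, 55.8 and 84.1 CPM at MYC off (log2 fold change 1.53 with an SE of 0.19, adjusted p = 3.53e-06). Tor1aip1, a lamina-bound activator of torsin, had 67.8, 69.8 and 66.9 CPM in the MYC on libraries, 121, 119.8 and 129 CPM at MYC intermediate and 161, 173 and 157 CPM at MYC off (log2 fold change 1.23 with an SE of 0.06, adjusted p = 4.19e-11). In both genes no MYC off library reached down to the MYC on libraries. Nemp2 and Syne3 were higher by log2 fold changes of 1.04 and 0.98. Banf1, which tethers chromatin to the envelope, Sun1, the relative of Sun2, and Lmnb2 were lower (-0.49, -0.46 and -0.23). Lmnb1, chosen after its values were seen together with Lmnb2, Banf1 and Sun1, was higher (0.67), while the call of Lmnb2 was lost without MYC off replicate 2 or 3 and without MYC on replicate 1 or 2 (adjusted p 0.0102 to 0.0149). The difference between the pore and the lamina lists was not tested.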
